A study of Solanum lycopersicum with 21 samples.

Results

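The comparison asked which leaf genes of tomato responded differently to a second drought and recovery when strigolactone supply was reduced. It was chosen as the contrast of 2 responses, that of a strigolactone-depleted line and that of the wild type, each taken as plants recovered from 2 droughts over irrigated plants sampled at the start. It used 12 of the 21 libraries of the series, 3 in each of 4 groups. All plants were of the cultivar M82, given as 3 weeks old, and fully expanded leaves were taken.

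The first group was the depleted line after the second recovery, line 6936, silenced for CCD7, taken through 2 cycles of drying in vermiculite given 20 ml of water and then watered again. The second was the same line, irrigated. The third was the wild type after the second recovery, and the fourth the wild type, irrigated. The recovery groups carry the time label 76 and the irrigated groups, sampled before the transfer to drying, the label 0, without a unit. Recovery and sampling time therefore cannot be told apart, either within a genotype or in the contrast of the 2 responses. Outside the contrast, levels are given for both genotypes after the first recovery, with 20 ml of water and the label 31. They are also given for wild type sprayed with 5 µM of the strigolactone analogue GR24, with the label 24. Against irrigated plants, spray and sampling time cannot be told apart either. Line 6936 is a single line, with strigolactone lowered by 70 to 80% in roots and their exudates per the study's description, and no value for leaves was at hand. A replicate held at least 3 leaves, 1 per plant, from 5 plants per condition, so the 3 replicates of a group cannot all come from separate plants and the p-values below are too small. In bulk leaf RNA, fewer cells of a type and less RNA per cell cannot be told apart.

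Strigolactones are hormones made from carotenoids, mostly in roots. The enzyme CCD7 is one of the carotenoid cleavage dioxygenases of their synthesis. In shoots they are known for holding back the outgrowth of side branches, and in several species for shaping the closure of stomata and the sensitivity of leaves to abscisic acid during drought. A plant that has been through one drought may answer the next one differently, which is often called stress memory. The interaction read here, (depleted line, recovered minus irrigated) minus (wild type, recovered minus irrigated), is positive where the response was higher in the depleted line and negative where it was lower. It does not say by itself which genotype moved.

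The deposited table names loci by ID only, and no source used here pairs these IDs with genes. Loci are therefore described by ID and values without a function, 2 higher and 2 lower per comparison. The level of CCD7 and markers of leaf or other tissues were not analysed here for the same reason, and no sequences are shown. The chromosome of a locus is the number that follows the Solyc prefix. Levels are CPM, counts scaled to library size with TMM factors, and differences are on the log2 scale with their standard error (SE). A gene, here 1 ID of the table, was called at an adjusted p under 0.05 by edgeR's quasi-likelihood test, over the 20373 IDs tested. Total counts of the 12 libraries ranged from 23326213 to 34997305, and a floor of 3 counts in a library corresponded to 0.0857 to 0.129 CPM.

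1 of the 12 libraries stood apart on 1 chromosome. In replicate 8 of the depleted line after the second recovery, the genes of chromosome 2 were raised as a block. Over the 1611 chromosome 2 IDs whose mean log2 CPM reached 1, this library exceeded the mean of its fellow replicates 13 and 11 by a median of 0.54 on the log2 scale, a factor of 1.46, with quartiles of 0.31 and 0.79. Over 13690 IDs of the other 11 chromosomes the median was −0.04. The shift ran along the whole chromosome. With the chromosome 2 IDs in order and split into 10 equal parts, the median of each part lay between 0.46 and 0.65. Replicate 8 was the highest of the 3 libraries for 84.6% of the chromosome 2 IDs and for 33.1% of the others. Relative to each gene's mean over the 12 libraries, the chromosome 2 median stood at 0.51 in this library and between −0.08 and −0.01 in the other 20 libraries of the series. The other chromosomes lay between −0.08 and 0.08 in all 21. What set chromosome 2 apart in this library was not tested. The main counts of calls, the runs of neighbouring IDs and the named chromosome 2 loci are given with and without it. Medians, classes and replicate overlaps of the called genes are given with all libraries, so they include it.

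**Figure D1:**
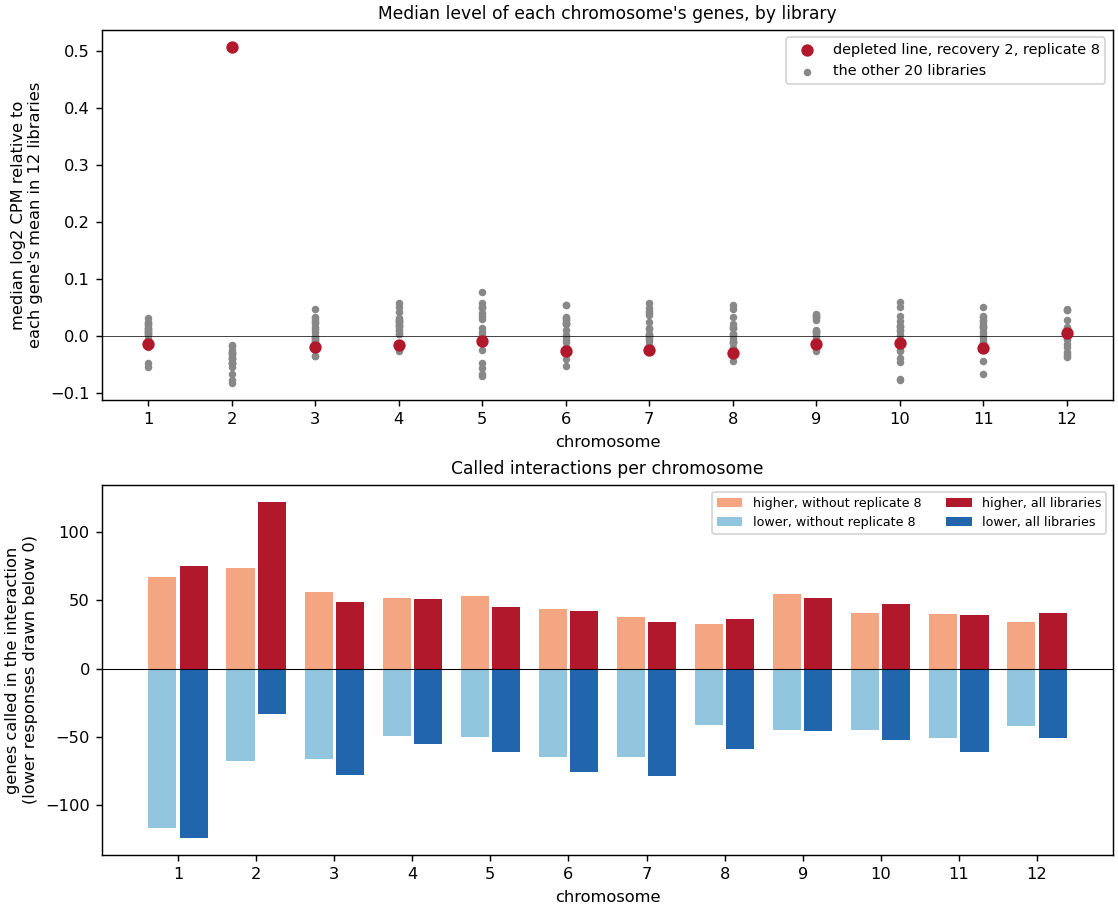
Upper panel: median log2 CPM of each chromosome's genes (mean log2 CPM of at least 1), relative to each gene's mean over the 12 libraries, 1 point per library for all 21 libraries. Replicate 8 of the depleted line after the second recovery stands at 0.51 on chromosome 2, and every other point lies between −0.08 and 0.08. Lower panel: number of genes called in the interaction per chromosome, higher responses above 0 and lower responses below, without that library (light) and with all libraries (dark). On chromosome 2 the 122 higher and 33 lower calls become 74 and 68.

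The response to the second recovery differed between the genotypes for 1415 genes, 6.95% of those tested. It was higher in the depleted line for 636 (3.12%) and lower for 779 (3.82%). The called interactions had a median size of 1.09 on the log2 scale where higher and 1.36 where lower, against 0.48 over all genes tested. Of the 1415 genes, 967 reached a size of 1 (4.75% of those tested), 257 a size of 2 and 75 a size of 3. Calls were more frequent among strongly expressed genes, with 2.18% of the lowest quartile by mean level and 11.2% of the highest. Sizes fell the other way, with a median of 2.72 in called genes of the lowest quartile and 1.06 in the highest. On the untransformed CPM scale the difference of differences had the same sign for all 1415 genes. Without replicate 8 of the depleted line after the second recovery, 588 genes were higher and 706 lower.

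The share of higher responses on chromosome 2 changed with that library. With all libraries, 122 of its 155 called genes were higher, a share of 78.7%, where the shares of the other 11 chromosomes ran from 30.1% to 53.1%. Without replicate 8, chromosome 2 had 74 higher and 68 lower calls, a share of 52.1%, where the highest share of another chromosome was 55% on chromosome 9, and 69 of the 122 higher genes were still called. The other 11 chromosomes together had 511 higher and 742 lower calls with all libraries, and 513 and 636 without replicate 8. The share of tested genes that were called lay between 5.87% and 7.68% on those chromosomes and was 7.09% on chromosome 2. The depleted line's own response showed the same pattern, with 178 higher and 64 lower calls on chromosome 2 with all libraries, against 57 and 69 without replicate 8. For the genotype difference after the second recovery the chromosome had 408 higher and 200 lower calls with all libraries, against 261 and 283 without replicate 8. Of the runs of neighbouring called IDs with 1 direction, 70 held 2 IDs, 3 held 3 and 2 held 4. The 2 runs of 4 were both on chromosome 2 with higher responses, of 0.78 to 2.06 and of 0.83 to 1.22. Without replicate 8 there were 56 runs of 2, 3 of 3 and 1 of 4, and the higher runs of 2 on chromosome 2 numbered 2, against 8 with it. Of the runs of 4, the first then kept 3 of its 4 calls, with 0.61 to 1.86, and the second kept 4, with 0.66 to 1.26.

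The median responses of the called genes were opposite in sign in the genotypes. Genes with a higher interaction had a median response of 0.59 in the depleted line and −0.49 in the wild type. For genes with a lower interaction the medians were −0.91 in the depleted line and 0.45 in the wild type. Over all genes tested they were −0.02 and −0.04. The estimated responses had opposite signs for 1293 of the 1415 genes, or 91.4%, where 46% of all genes tested had opposite signs. An interaction is more readily called where the responses oppose each other, so these shares describe the called genes and test nothing.

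**Figure D2:**
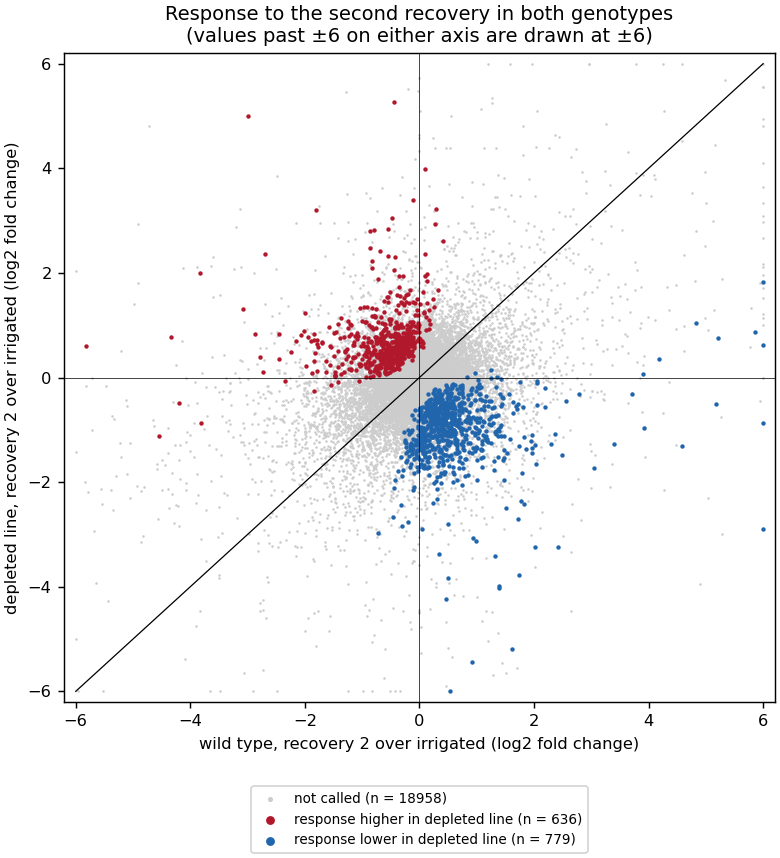
Each point is 1 of 20373 genes, with the wild type's log2 fold change between recovery 2 and irrigation on the x axis and that of the depleted line on the y axis. The diagonal marks equal responses. The 636 genes with a higher and the 779 with a lower one in the depleted line lie mostly in the quadrants of opposite signs, 1293 of 1415.

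The larger of both estimated responses belonged to the depleted line for 930 of the called genes, 65.7%, and to the wild type for 485. Over all genes tested it belonged to the depleted line for 51.2%. This share was higher among lower responses, 572 of 779, than among higher ones, 358 of 636. It ran from 56.5% to 78.5% as single libraries were left out, with the lowest value without replicate 14 and the highest without replicate 7 of the irrigated wild type. Taken alone, the depleted line's response was called for 2118 genes (10.4%), 887 higher (4.35%) and 1231 lower (6.04%), and the wild type's for 997 (4.89%), 425 higher (2.09%) and 572 lower (2.81%). At an unadjusted edgeR p under 0.05 the counts lay closer, at 5411 and 5000. Over all genes tested, recovered libraries all lay above or all below the irrigated ones for 14.1% and 16% in the depleted line. In the wild type these shares were 17.8% and 19.8%. The depleted line's count of called genes was 1230 without replicate 8 of the recovered line, and 993 and 935 without replicates 6 and 7 of the irrigated one. Among the interaction genes, 766 had a called response in the depleted line alone, 269 in the wild type alone and 66 in both with opposite directions. A further 314 were called in neither response. These classes held 9.6%, 4.1%, 0.324% and 85.5% of all genes tested, in the order given. Of the 96 genes called in both responses in 1 direction, none was called in the interaction. The wild-type calls of edgeR passed the threshold only with replicate 9 after the second recovery included. Without it edgeR called 0 wild-type responses, with 3404 at an unadjusted p under 0.05. DESeq2, on all libraries, called 2342. The count was 65 without replicate 7 and 143 without replicate 6 of the irrigated wild type, and 432 and 573 without replicates 11 and 8 of the recovered one.

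Replicates overlapped for many called genes in at least 1 genotype. All 3 libraries of the recovered depleted line lay above all 3 irrigated ones for 446 of the 636 higher genes, and all 3 recovered wild-type libraries lay below the irrigated ones for 476. The same arrangements were seen for 14.1% and 19.8% of all genes tested. Both held for 292, or 45.9%, against 2.38% of all genes tested. Among lower genes the opposite arrangement held in both genotypes for 291 of 779, or 37.4%, against 1.95% of all genes tested.

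Read the other way, the interaction compares the genotypes before and after the droughts. Genotype differences were called for 7001 genes (34.4%) in irrigated plants and for 5423 (26.6%) after the second recovery, or 3468 without replicate 9 of the recovered wild type. Of the 636 genes with a higher response, 425 were lower in the depleted line under irrigation (16% of all genes tested) and 253 were higher after the second recovery (14.9%). Of the 779 with a lower response, 583 were higher under irrigation (18.4% of all) and 270 were lower after recovery (11.7%). The estimated genotype difference changed sign for 996 of the 1415 genes, became smaller for 314 and larger for 105. Over all genes tested these outcomes stood at 30.7%, 36.6% and 32.6%. The difference was called in both conditions with opposite signs for 134 genes, and with equal signs for 57. For 834 genes it was called under irrigation alone and for 372 after recovery alone. In the same order these 4 classes held 0.658%, 13.2%, 20.5% and 12.8% of all genes tested. Medians followed, at 0.37 after recovery and −0.69 under irrigation for higher genes, and −0.37 after recovery and 0.96 under irrigation for lower genes. Both differences use the libraries of the interaction, so these counts are a description.

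The first recovery gave levels in libraries that the interaction does not use. Of the 636 genes with a higher response, 138 were lower and 44 higher in the depleted line than in the wild type at the first recovery. These are 21.7% and 6.92%, where 9.71% and 9.92% of all genes tested were called lower and higher there (19.6% in all). The median genotype difference of these genes was −0.19, the sign it had under irrigation. Of the 779 genes with a lower response, 76 were lower (9.76%) and 47 higher (6.03%), with a median of −0.05. Their shares at the first recovery were thus near or under those of all genes, while under irrigation 74.8% of them were higher in the depleted line. With upper-quartile scaling, the 21.7% of the higher-response genes called lower at the first recovery became 26.1%.

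The level of the called genes was followed library by library. For lower genes, the median relative to each gene's mean over the 12 libraries stood at −0.37 to −0.26 in the recovered depleted line and 0.36 to 0.78 in the irrigated one. In the wild type it stood at −0.06 to 0.25 after recovery and −0.45 to −0.24 under irrigation. The groups of each genotype did not overlap, which the selection of these genes favours. Outside the contrast, the depleted line at the first recovery stood at −0.27 to −0.20, close to its second recovery. Wild type at the first recovery stood at −0.24 to −0.11. Wild type sprayed with the strigolactone analogue GR24 stood at 0.25 to 0.45, above all irrigated wild-type libraries and partly within the range of the irrigated depleted line. For higher genes the medians were 0.19 to 0.24 in the recovered and −0.47 to −0.28 in the irrigated depleted line, and −0.16 to −0.08 in the recovered and 0.27 to 0.46 in the irrigated wild type. Sprayed leaves stood at −0.14 to −0.08 for these, below all irrigated wild-type libraries and above all irrigated depleted ones. At the first recovery the depleted line stood at −0.09 to 0.09 and the wild type at 0.11 to 0.26, likewise between the irrigated groups. The selection of both sets favours irrigated groups at opposite ends, and libraries outside the contrast tend to fall between them. The place of the sprayed leaves therefore cannot by itself be read as an effect of the spray, which was not tested. No gene was tested in these medians, and the medians of all genes lay within −0.02 to 0.06.

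**Figure D3:**
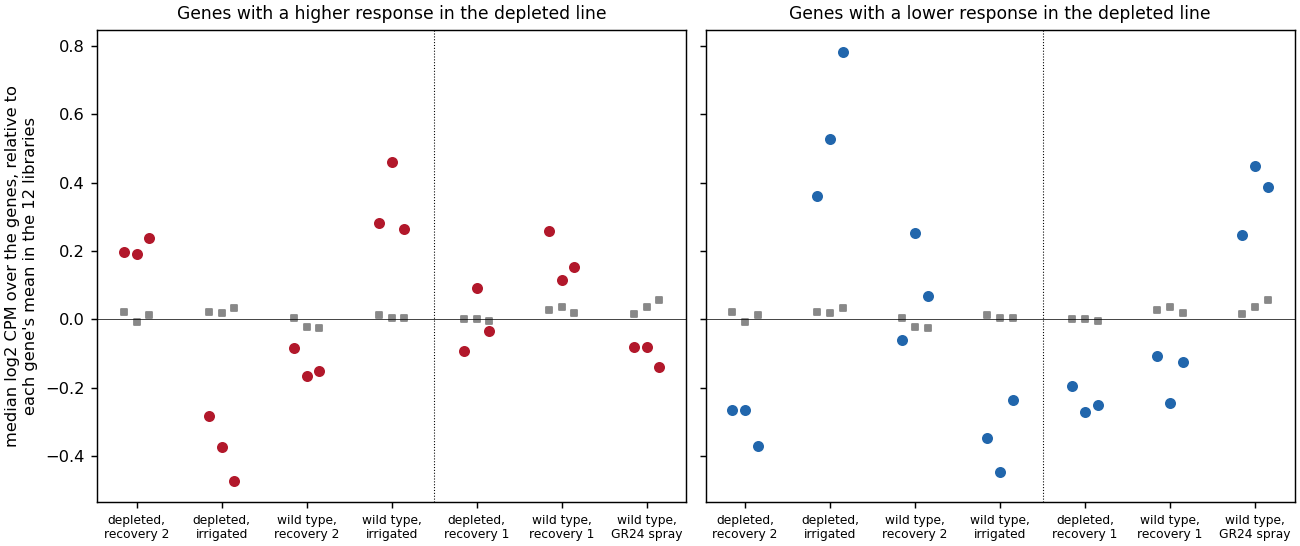
Median log2 CPM over the 636 genes with a higher (left) and the 779 with a lower response (right), relative to each gene's mean over the 12 libraries of the contrast, 1 circle per library, with the median of all tested genes as grey squares. Libraries right of the dotted line did not enter the contrast. For lower responses the GR24-sprayed wild type lies at 0.25 to 0.45 and the irrigated depleted line at 0.36 to 0.78.

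Single libraries were often the extreme of their group. Replicate 7 of the irrigated depleted line was the highest of its group for 77.8% of the genes with a lower response, where it was highest for 35.1% of all genes tested. Replicate 9 of the recovered wild type was the highest for 71.4% of the lower genes, against 34.4% of all genes. Among higher genes, replicate 7 of the irrigated wild type was the highest for 68.7%, against 30.6% of all genes. The count of interactions, 1415 with all libraries, was 628 without the first of these libraries, 597 without the second and 494 without the third. It was 743 and 858 without replicates 13 and 11 of the recovered depleted line, 787 without replicate 11 of the recovered wild type and 901 without replicate 6 of the irrigated depleted line. Without replicate 3 of the irrigated depleted line it rose to 1947.

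**Figure D4:**
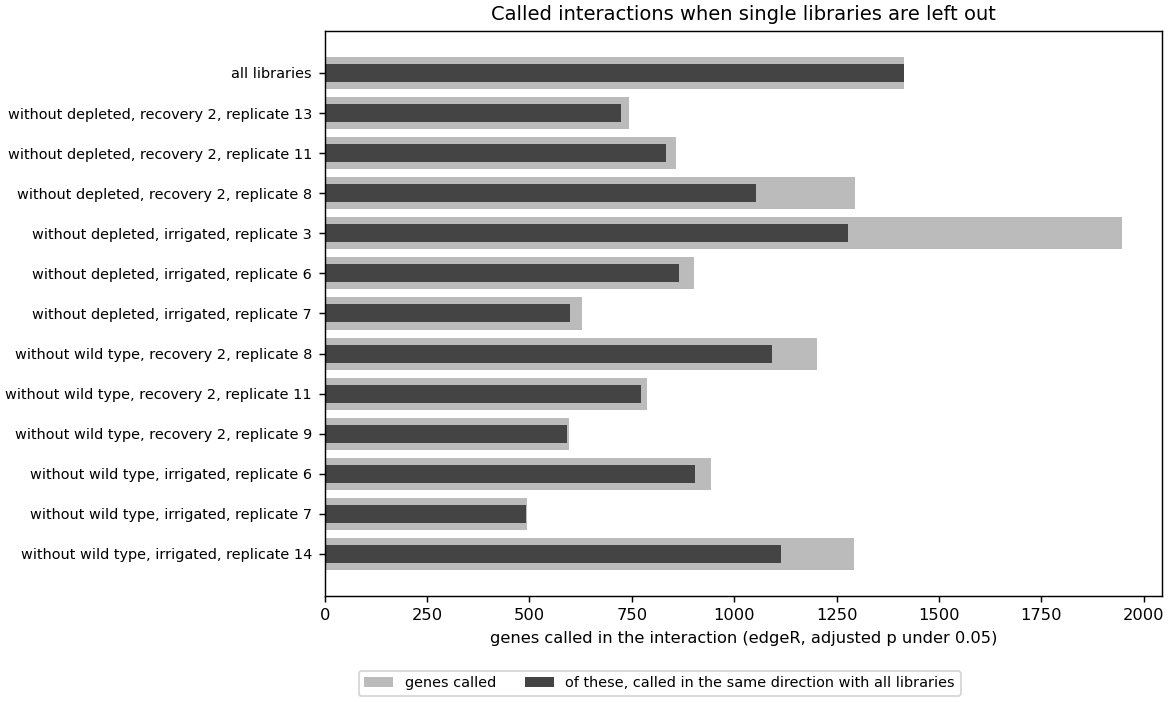
Number of genes called in the interaction with all libraries and without each of the 12 libraries in turn (light bars), and how many of them were called in the same direction with all libraries (dark bars). The count runs from 494, without replicate 7 of the irrigated wild type, to 1947, without replicate 3 of the irrigated depleted line.

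Of the 1415 genes, 459 kept their call and direction without each of the 12 libraries in turn, 181 higher and 278 lower, and all 459 were also called with the 4 groups fitted alone. For 344 of the 459 the larger response was in the depleted line, against the 51.2% of all genes tested given above. Among these, the 2 loci of largest interaction in each direction with a mean log2 CPM that reached 1 are described first. Of the 17 loci named below, 6 lost their interaction call under limma-voom (adjusted p of 0.0547 to 0.504), namely Solyc02g083520.2, Solyc02g071090.3, Solyc03g082420.3, Solyc05g014280.3, Solyc06g072430.2 and Solyc04g050620.3. With a block on replicate number in the fit, none of the 17 was called (edgeR adjusted p of 0.0703 to 0.43).

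Solyc01g006560.3, on chromosome 1, had the largest higher interaction by this rule. It stood at 96.8, 131 and 160 CPM in the recovered depleted line, against 9.45, 28.7 and 16.5 CPM in the irrigated depleted line. In the wild type it stood at 284, 193 and 270 CPM after recovery, against 358, 615 and 321 CPM under irrigation. The groups of the depleted line lay apart, and so did those of the wild type. The response was 2.82 ± 0.46 in the depleted line (log2, SE, edgeR adjusted p = 0.00139) and −0.79 ± 0.43 in the wild type, where it was not called (adjusted p = 0.271). The interaction was 3.62 ± 0.63 (adjusted p = 0.00432). Under irrigation the depleted line was lower, at a log2 difference of −4.56 ± 0.50 (adjusted p = 1.40e-05). After the second recovery the difference was −0.95 ± 0.43, which did not pass (adjusted p = 0.114). At the first recovery, in other libraries, the depleted line was lower, at −1.72 (adjusted p = 0.0126).

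Solyc01g009680.3, also on chromosome 1, tracked it in every library. It stood at 73.2, 96.4 and 107 CPM in the recovered depleted line, against 5.72, 21.6 and 11.2 CPM in the irrigated one. In the wild type it stood at 221, 142 and 219 CPM after recovery and 250, 386 and 219 CPM under irrigation, where the ranges overlapped narrowly. Its interaction was 3.40 ± 0.68 (log2, SE, edgeR adjusted p = 0.00836). The ratio of the level of the first locus to that of the second stayed between 1.16 and 1.88 over all 21 libraries, and their log2 levels had Pearson's r = 0.995, a description over libraries that share their groups.

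Solyc08g081170.3, on chromosome 8, had the lowest interaction by this rule. It stood at 2.62, 6.26 and 8.85 CPM in the recovered depleted line, below the 17.8, 13.1 and 18.5 CPM of the irrigated one. In the wild type it stood at 4.26, 16.1 and 9.14 CPM after recovery, above the 1.39, 1.38 and 2.51 CPM under irrigation. The groups did not overlap in either genotype. The wild-type response was 2.49 ± 0.51 (log2, SE, edgeR adjusted p = 0.0147), while that of the depleted line, −1.47 ± 0.48, missed the threshold (adjusted p = 0.0594). The interaction was −3.96 ± 0.70 (adjusted p = 0.00466). Wild-type leaves sprayed with GR24 stood at 50.9, 43.3 and 28.5 CPM, above every other library of the series.

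Solyc03g115230.3, on chromosome 3, had a called response in the wild type and none in the depleted line (edgeR adjusted p = 0.00948 and 0.741). Recovered wild-type leaves stood at 64.6, 679 and 156 CPM, all above the 14.6, 15.9 and 19.2 CPM of irrigated ones, with the highest value in replicate 9. The depleted line stood at 22.6, 49.7 and 42.5 CPM after recovery and 32.2, 28.6 and 28.9 CPM under irrigation, where the groups overlapped. Its interaction was −3.82 ± 0.85 (log2, SE, edgeR adjusted p = 0.0138), and −2.37 without replicate 9 of the recovered wild type (adjusted p = 0.0395).

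**Figure D5:**
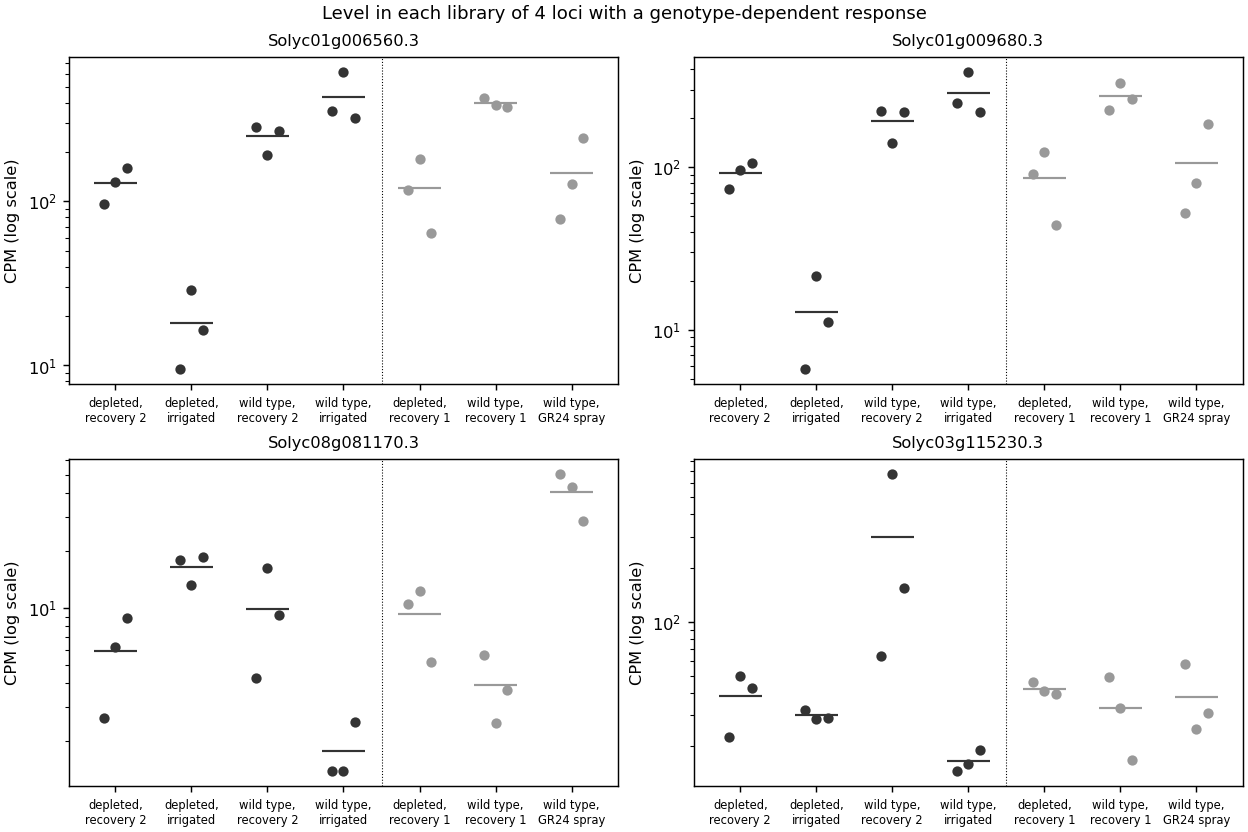
CPM on a log axis in each of the 21 libraries for the 2 loci of largest interaction in each direction among calls kept without each library, with the mean of each group as a line and the groups of the contrast in black. The upper loci are lowest in the irrigated depleted line, at 9.45 to 28.7 and 5.72 to 21.6 CPM. The lower right locus is highest in the recovered wild type, at 64.6 to 679 CPM.

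Among the 142 interaction genes whose increase in the depleted line kept its call without each library, 2 chromosome 2 loci ranked first with all libraries. Without replicate 8 of the recovered depleted line, Solyc01g006560.3 and Solyc01g009680.3 ranked first, with responses of 3.00 and 2.99, with these 2 loci next, at ranks 3 and 4. Solyc02g083520.2 averaged 9.08 ± 4.01 CPM in the recovered and 0.981 ± 0.457 CPM in the irrigated depleted line (SD, n = 3 each), a response of 3.22 ± 0.48 (log2, SE, edgeR adjusted p = 0.000962). In the wild type it averaged 42.4 ± 6.39 CPM after recovery and 34.9 ± 15.4 CPM under irrigation (SD, n = 3 each), and the interaction was 2.93 ± 0.62 (edgeR adjusted p = 0.0110). On the untransformed scale the means of both genotypes rose by similar amounts, and the difference of differences was only 0.518 CPM. The depleted line remained under the wild type after the second recovery, at a log2 difference of −2.23 ± 0.42 (adjusted p = 0.00135), and GR24-sprayed wild type was as low as 2.54 ± 0.599 CPM (SD, n = 3). Without replicate 8 of the recovered depleted line its response was 2.89 and its interaction 2.60 (adjusted p = 0.0246). Solyc02g071090.3 averaged 24.8 ± 6.21 CPM in the recovered and 3.21 ± 0.696 CPM in the irrigated depleted line (SD, n = 3 each), against 62.3 ± 5.23 CPM in the recovered and 51.7 ± 16.6 CPM in the irrigated wild type. Its interaction of 2.68 ± 0.76 (log2, SE, edgeR adjusted p = 0.0419) lost its call without that library (2.52, adjusted p = 0.0734), where its response was 2.78. Counting that library, 10 of the 12 ended the call when left out, with adjusted p up to 0.116.

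By the same rule, the largest decreases of the depleted line were those of Solyc10g079810.1 and Solyc07g053950.1. Solyc10g079810.1 stood at 0.562, 0.639 and 1.64 CPM in the recovered depleted line, below the 10.9, 16.7 and 13.03 CPM of the irrigated one, a response of −3.82 ± 0.75 (log2, SE, edgeR adjusted p = 0.00431). In the wild type the groups overlapped, at 4.26, 3.03 and 8.88 CPM after recovery and 5.94, 3.23 and 2.16 CPM under irrigation. Its interaction was −4.33 ± 0.99 (edgeR adjusted p = 0.0159), and −4.23 without replicate 7 of the irrigated wild type, where the call was lost (adjusted p = 0.0537). Solyc07g053950.1 averaged 0.900 ± 0.272 CPM in the recovered and 6.73 ± 1.21 CPM in the irrigated depleted line (SD, n = 3 each), and 2.33 ± 0.141 CPM in the recovered and 2.25 ± 0.461 CPM in the irrigated wild type. The interaction was −2.94 ± 0.63 (log2, SE, edgeR adjusted p = 0.0110). The depleted line lay above the wild type under irrigation and below it after recovery, both called (adjusted p = 0.00977 and 0.0342).

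No wild-type response kept its call without replicate 9, so the loci of the wild type were ranked by their largest adjusted p over the left-out libraries. The smallest such value, 0.0677, was shared by 12 higher and 10 lower genes, and the first 2 of each in the table's order are given. Solyc03g082420.3 stood at 6.21, 1178 and 35.2 CPM in the recovered wild type, with the highest value in replicate 9, against 0.726, 0.988 and 1.27 CPM in the irrigated wild type. The depleted line stood at 1.97, 0.468 and 0.778 CPM after recovery and 0.945, 0.431 and 0.679 CPM under irrigation, within a small range. Its wild-type response was 8.68 ± 1.56 (log2, SE, edgeR adjusted p = 0.00948) and 4.37 without replicate 9 (adjusted p = 0.0677). Its interaction of −8.06 ± 2.12 (adjusted p = 0.0300) was −3.74 without that library (adjusted p = 0.0979). It also lost its call when any 1 of 7 other libraries was left out. Solyc01g106210.3 stood at 53.8, 167 and 63.5 CPM in the recovered wild type against 28.3, 25.0 and 33.99 CPM in the irrigated one. In the depleted line it stood at 75.97, 59.2 and 62.3 CPM after recovery and 101, 93.1 and 106 CPM under irrigation. The groups did not overlap in either genotype and lay in opposite directions, although the depleted line's response was not called (edgeR adjusted p = 0.204). The interaction was −2.30 ± 0.42 (log2, SE, edgeR adjusted p = 0.00538).

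In the direction of a fall in the wild type, Solyc01g109380.3 stood at 0.974, 0.518 and 0.260 CPM in recovered wild-type leaves, below the 5.68, 4.08 and 2.08 CPM of irrigated ones. The depleted line averaged 4.56 ± 1.08 CPM after recovery and 4.21 ± 1.81 CPM under irrigation (SD, n = 3 each), and the interaction was 2.84 ± 0.63 (log2, SE, edgeR adjusted p = 0.0131). Solyc01g049650.3 showed a small change with little spread. It averaged 36.03 ± 3.66 CPM in the recovered and 58.5 ± 0.849 CPM in the irrigated wild type (SD, n = 3 each), against 30.9 ± 1.98 CPM in the recovered and 29.7 ± 0.891 CPM in the irrigated depleted line. Its interaction was 0.76 ± 0.17 (log2, SE, edgeR adjusted p = 0.0130). The wild type thus came to lie near the level that the depleted line had throughout, and the genotypes did not differ at the threshold after recovery (adjusted p = 0.168).

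Some interaction genes differed between the genotypes mainly after the second recovery, which their selection as interaction genes with large differences there favours. Solyc09g008320.3 stood at 61.6, 46.3 and 35.96 CPM in the recovered depleted line, against 2.25, 0.382 and 0.966 CPM in the recovered wild type, a log2 difference of 5.31 ± 0.91 (SE, edgeR adjusted p = 0.000684). Under irrigation it stood at 34.3, 13.4 and 10.4 CPM in the depleted line and 10.1, 9.75 and 10.8 CPM in the wild type, where no difference was called (adjusted p = 0.361). Its interaction was 4.39 ± 1.13 (adjusted p = 0.0275), lost without any 1 of 5 libraries (adjusted p up to 0.0770). Solyc09g065620.3 averaged 21.8 ± 7.03 CPM in the recovered depleted line and 0.759 ± 0.504 CPM in the recovered wild type (SD, n = 3 each). Under irrigation it averaged 4.23 ± 0.974 and 4.93 ± 6.02 CPM in the depleted line and the wild type (SD, n = 3 each), with 11.9 CPM in wild-type replicate 7. The interaction was 5.06 ± 1.10 (log2, SE, edgeR adjusted p = 0.0127) and 3.32 without that library (adjusted p = 0.0561). At the first recovery both loci were also higher in the depleted line, by 2.33 and 2.61 (adjusted p = 0.0432 and 0.0244).

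In the opposite direction, the recovered genotypes differed most in Solyc03g082420.3, described above, and in Solyc05g014280.3. The second locus stood at 6.33, 2.26 and 5.57 CPM in the recovered depleted line, against 27.7, 523 and 71.8 CPM in the recovered wild type, a log2 difference of −5.46 ± 0.96 (SE, edgeR adjusted p = 0.000819). Under irrigation it stood at 1.84, 3.98 and 2.50 CPM in the depleted line and 3.35, 3.89 and 9.57 CPM in the wild type, where the ranges overlapped. The highest value was again that of wild-type replicate 9. Without it the interaction of −4.45 ± 1.22 (adjusted p = 0.0362) became −2.39 (adjusted p = 0.158), and 7 other libraries also ended the call when left out.

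The largest genotype differences under irrigation among the interaction genes were smaller after recovery. Selecting interaction genes by their difference under irrigation favours this. Solyc06g072430.2 stood at 32.9, 34.1 and 23.1 CPM in the irrigated depleted line, against 0.347, 0.527 and 1.43 CPM in the irrigated wild type, a log2 difference of 5.31 ± 0.79 (SE, edgeR adjusted p = 0.000130). After the second recovery it stood at 56.3, 14.6 and 23.3 CPM in the depleted line and 3.65, 22.1 and 7.80 CPM in the wild type, where the ranges met. The wild type moved, by 3.89 ± 0.75 (adjusted p = 0.0115), and the interaction was −3.83 ± 0.97 (adjusted p = 0.0258). It was lost without any 1 of 6 libraries, with adjusted p up to 0.0863. Solyc04g050620.3 averaged 8.74 ± 6.87 CPM in the irrigated depleted line and 0.471 ± 0.276 CPM in the irrigated wild type (SD, n = 3 each). After recovery it averaged 6.36 ± 3.85 CPM in the depleted line and 2.76 ± 0.351 CPM in wild-type leaves (SD, n = 3 each). Its interaction of −3.01 ± 0.87 (log2, SE, edgeR adjusted p = 0.0448) was lost without any 1 of 10 libraries, with adjusted p up to 0.133. The GR24-sprayed wild type, at 20.5 ± 11.2 CPM, was above the irrigated wild type for this locus, as it was for Solyc06g072430.2 at 14.4 ± 9.33 CPM (SD, n = 3). Lower in the irrigated depleted line were Solyc02g083520.2 and Solyc01g006560.3, both given above.

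In 18 of the 1415 genes at least 1 of the 4 groups held no more than 3 counts in all. For 13 of them, all with lower responses, this was the recovered depleted line. No fold is given for these. The 5 called IDs with the ENSRNA prefix, of 67 tested, were not described further.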

How the data were processed

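The deposited table holds raw counts per gene ID in leaf RNA-seq libraries, aligned with HISAT2 and counted with HTSeq per the submitters' processing notes. Not given in the sources used here: versions, strand setting, genome build and annotation. Of its 35039 IDs, 33925 carry the Solyc prefix and 1114 the ENSRNA prefix, and 9577 were 0 in every library. None of the IDs matched the 41476 RefSeq genes at hand (0 matched), so lists of named genes and tissue markers were not run. 6 columns of the table belong to no sample used here and were left out.

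All 21 libraries (7 groups of 3, 14 residual degrees of freedom) were fitted together with edgeR 4.0.16 in R 4.3.3, using TMM scaling, its filter on low counts by group and the robust quasi-likelihood test, and p-values were adjusted by the Benjamini-Hochberg method over the 20373 IDs that passed. The standard error is the absolute log2 fold change over the square root of F. Log2 CPM used a prior count of 2. Total counts of the 12 libraries of the contrast ranged from 23326213 to 34997305. Replicates differed beyond counting noise, with a chi-square per degree of freedom of 28.9 to 151. The highest value was that between replicates 3 and 7 of the irrigated depleted line. The script was tested on simulated data.

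Loci are named by the largest absolute effect among interaction genes whose mean log2 CPM reached 1 and whose call held without each of the 12 libraries, 2 per direction. The wild-type response had none, so genes were ranked by their largest adjusted p over the left-out libraries, smallest first, with ties in table order. The alternatives were DESeq2 1.42.0, limma 3.58.1 (voom), RLE and upper-quartile factors, no filter on low counts, the 4 groups alone, a block on replicate number and each library left out. The comparison, members and lists were chosen with earlier results of these data known, and the values by chromosome in single libraries and by extreme library were added after seeing the data.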

Additional observations from a re-analysis of the deposited data

Results flagged for a closer look

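The interaction tests whether the response to the second recovery differs between the depleted line and the wild type, and by that test the responses differed for 1415 genes. The named loci each passed it by edgeR's quasi-likelihood test with Benjamini-Hochberg adjustment. Under limma-voom 6 of the 17 did not, and with the block on replicate number none did. Solyc03g082420.3, Solyc05g014280.3 and Solyc04g050620.3 did not pass with the 4 groups alone. Solyc02g071090.3, Solyc05g014280.3 and Solyc04g050620.3 did not pass without the filter on low counts. Higher responses in the depleted line were those of Solyc01g006560.3 (3.62 on the log2 scale), Solyc01g009680.3 (3.40), Solyc02g083520.2 (2.93), Solyc02g071090.3 (2.68), Solyc01g109380.3 (2.84), Solyc01g049650.3 (0.755), Solyc09g008320.3 (4.39) and Solyc09g065620.3 (5.06).

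Lower responses were those of Solyc08g081170.3 (−3.96 on the log2 scale), Solyc03g115230.3 (−3.82), Solyc10g079810.1 (−4.33), Solyc07g053950.1 (−2.94), Solyc03g082420.3 (−8.06), Solyc01g106210.3 (−2.30), Solyc05g014280.3 (−4.45), Solyc06g072430.2 (−3.83) and Solyc04g050620.3 (−3.01). The values of Solyc03g082420.3 and Solyc05g014280.3 moved to −3.74 and −2.39 without replicate 9 of the recovered wild type.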

How the results depend on the processing

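No named locus changed sign in the alternatives run. The 1415 interactions numbered 2387 by DESeq2 (1155 higher, 1232 lower), and 494 to 1947 as single libraries were left out. DESeq2, RLE and upper-quartile factors, the unfiltered fit, the 4 groups alone and limma called no gene in the opposite direction. The depleted line's 2118 responses numbered 935 to 2673 with a library left out and 932 at an absolute log2 fold change of at least 1. The wild type's 997 numbered 2342 by DESeq2, 1685 with the 4 groups alone, 593 at that size and 0 to 1055 with a library left out. At that size the genotypes differed in 3180 genes after recovery and 3734 under irrigation, and with a library left out in 3468 to 5651 and 4822 to 7086. The larger side of some splits turned. The genotype difference after recovery (3040 higher, 2383 lower) was 2507 and 3054 with upper-quartile factors and 2932 and 3079 with the 4 groups alone. That under irrigation (3751 and 3250) was 3293 and 3751 with upper-quartile factors, 3736 and 3802 with the 4 groups alone and 3257 and 3277 without the filter. The wild type's response (425 and 572) was 489 and 484 with upper-quartile factors and 882 and 803 with the 4 groups alone. The share of interactions with the larger response in the depleted line, 65.7%, was 61.5% by DESeq2 and 56.5% to 78.5% with a library left out. The share called lower at the first recovery, 21.7%, was 26.1% with upper-quartile factors and 20% to 27.8% with a library left out. The deviations of same-numbered libraries had correlations of 0.02 and −0.01 after recovery and 0.06 and −0.05 under irrigation. The pairs are few and the labels do not say what a number marks, so these values cannot decide whether the numbers pair the samples. The replicate block, which leaves 4 residual degrees of freedom, gave 1 interaction (3853 at an unadjusted p under 0.05), 2062 genotype differences after recovery and 3598 under irrigation, and the simple responses could not be fitted with it. The cause of these shifts was not tested. Without chromosome 2 there were 514 higher and 746 lower interactions. Whether a difference could be detected at this depth in a gene near the floor of 0.0857 to 0.129 CPM in all groups was not tested.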
